A study of Zea mays with 12 samples.

Results

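The comparison set maize stems whose wounds had received the regurgitate of a stem-boring caterpillar against stems that had been wounded in the same way without it. It covered the maize genes of a 3′-end sequencing table. Of 29723 maize genes in the table, 27947 had at least 1 count in the 6 libraries compared, and 18285 passed the filter on low counts and were tested. All plants were of the inbred line PB130, which is resistant to the borer, and were grown in a greenhouse. The wounding group (3 libraries) had the leaf sheaths below the main ear scratched with a scalpel and treated with phosphate buffer, and the regurgitate group (3 libraries) received the same scratches with regurgitate of *Sesamia nonagrioides*, the Mediterranean corn borer, in the buffer. Both groups therefore carried wounds, repeated every other day and sealed with film, and the reference of every fold change below is a wounded plant. At day 15 an undamaged piece of the internode below the ear was collected without its sheath, so the sampled stem lay beneath the wounded tissue. The other 6 libraries of the series came from untreated control plants and from plants that carried larvae, and their levels are given only to place the values. The labels and the study's methods differ on the plant stage and on the number of plants treated, so the p-values measure the spread between these libraries.

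Caterpillar regurgitate holds elicitors, among them conjugates of fatty acids with amino acids such as volicitin, which can alter the defences of a wounded leaf. Wounding alone switches on jasmonate signalling in plants, and jasmonate in turn induces protease inhibitors and many other defence genes. Abscisic acid and drying tissue induce a further group, the dehydrins and the sugars of the raffinose family, that protects cells as they lose water. The comparison asks what the secretion adds to the response to a wound.

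Only 11 genes were called at an FDR under 0.05, which was 0.0602% of the genes tested, with 2 higher (0.0109%) and 9 lower (0.0492%) in the regurgitate group (edgeR's quasi-likelihood test with Benjamini-Hochberg adjustment). Their FDRs lay between 0.0418 and 0.0479. In a fit that blocked on the replicate number 0 genes were called, with the FDRs of the same 11 genes between 0.0546 and 0.0548 and 4570 genes at an unadjusted p under 0.05, while DESeq2 without the block called 1633 genes (8.93%). Without the block 3616 genes (19.8%) had an unadjusted p under 0.05 in edgeR. The call ended without regurgitate library 1, regurgitate library 3, wounding library 2 or wounding library 3 (0 genes each, with 2369 to 2969 at an unadjusted p under 0.05), and the count became 35 without wounding library 1 and 665 without regurgitate library 2. All 11 genes kept their sign in each of the 18 alternative settings. This is a weak check, since the genes were chosen by small p and their groups did not overlap.

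The libraries of each group differed strongly from each other. Totals ran from 6008657 to 6888308 counts in the regurgitate group and from 7970625 to 10056972 in the wounding group, and counts on maize genes from 3047770 to 6243792 and from 5421705 to 6057383. The share of counts on maize genes was 72.8%, 44.2% and 93.1% in regurgitate libraries 1 to 3, and 74.4%, 58.4% and 68.0% in wounding libraries 1 to 3. Features outside the maize genes were counted as fungal where their protein match named any of 7 fungal genera, so other fungi were not counted. Of these 19138 features, 10282 named the species *Gibberella moniliformis*. The fungal-named features took 4.66%, 14.8% and 0.0888% in the regurgitate libraries against 10.96%, 24.9% and 12.5% in the wounding libraries, and from 0.264% to 0.528% in the controls. Regurgitate library 3 lay farthest along the first principal component and had the smallest fungal share of the 12 libraries. Across genes, regurgitate libraries 1 and 2 correlated more with wounding library 1 (r = 0.893 and 0.920) than with the other libraries of their own group (r from 0.790 to 0.887). The chi-square of the counts per degree of freedom gave another order. By it regurgitate library 1 lay nearer to regurgitate libraries 2 (41.0) and 3 (22.9) than to wounding library 1 (47.3). Regurgitate library 2 lay about as near to regurgitate library 1 (41.0) as to wounding library 1 (41.7). A set of 530 assembled contigs, chosen after their values were seen, took 7.27% and 16.2% of the counts in regurgitate libraries 1 and 2 and 0.0143% in library 3. Whether RNA of another source entered some of these libraries was not tested, so the values of the regurgitate group come from 3 libraries of unlike makeup. The fungal share was below that of every wounding library in regurgitate libraries 1 and 3 but not in library 2, and its part in the results below was not tested. Genes expected in stem tissue were detected: 18 of 22 genes for cellulose synthases and COBRA proteins and 19 of 25 genes of lignin precursor synthesis passed the filter. So did 44 of 49 photosystem genes, expected in green tissue, and 60 of 79 histone and cell division genes, expected in dividing tissue. Of 10 grain storage genes 2 passed. Passing the filter therefore does not set stem apart from green or dividing tissue. In these bulk samples, fewer cells of a type and less RNA per cell cannot be told apart.

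**Figure D1:**
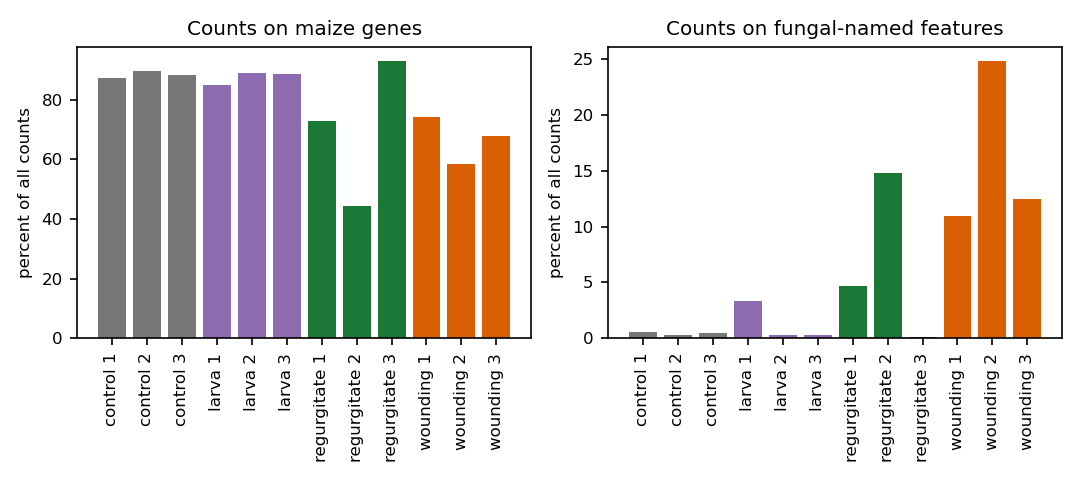
Percent of all counts on maize genes (left) and on features outside the maize genes whose protein match names a fungus of the 7 genera searched (right), 1 bar per library, both axes from 0. Wounding libraries lie at 10.96% to 24.9% on the right, and regurgitate libraries at 4.66%, 14.8% and 0.0888%.

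Levels below are in CPM, the count of a gene divided by the scaled total of maize gene counts of its library and expressed per 1000000. A 3′-end library gives about 1 tag per transcript, so the count of a gene does not grow with its length. Fold changes are log2 differences, regurgitate minus wounding, with the standard error of the edgeR fit. The median over all genes tested was -0.02, and it was 0.26 when libraries were scaled by total counts alone.

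A pair of chalcone synthase genes was called lower. Chalcone synthase joins coenzyme A esters to malonyl units, the first step of flavonoid synthesis. The identity of both genes comes from the study's annotation, since they carry no deposited description. The study proposes that genes of this family repressed by regurgitate could act in making phenolic lipids. GRMZM2G435393 stood at 29.2, 36.8 and 30.5 CPM in the regurgitate libraries and at 354, 270 and 365 CPM in the wounding libraries. Each regurgitate library was far below each wounding library, and the log2 fold change was -3.36 ± 0.25 (10.3-fold lower, edgeR FDR 0.0418). AC191551.3_FG003 stood at 18.7, 18.9 and 11.4 CPM against 256, 130 and 220 CPM, with a log2 fold change of -3.64 ± 0.37 (edgeR FDR 0.0479). Control plants held both genes at 14.0 CPM or less, so the high level was that of the wounded plants without regurgitate. The flavonoid list was built from descriptions and so does not hold this pair. It went both ways: of 36 tested, 5 were higher and 8 lower at an unadjusted p under 0.05 (9.35% and 10.4% over all genes tested). The median log2 fold change of the list was -0.00. Leaving out 1 library gave from 3 to 10 higher and from 5 to 8 lower, with 3 higher without regurgitate library 1 or 3, 10 without regurgitate library 2 or wounding library 1, 9 without wounding library 3 and 5 lower without wounding library 2. Flavonol 4-sulfotransferase GRMZM2G152179 was at 29.8, 37.8 and 29.4 CPM against 95.8, 72.2 and 82.1 CPM (log2 -1.37 ± 0.21, edgeR FDR 0.0783). A pair of genes described as anthocyanidin 3-O-glucosyltransferase, an enzyme that adds glucose to anthocyanidins, had opposite signs. GRMZM2G383404 had 13.7, 3.98 and 15.1 CPM against 0.850, 0.605 and 0.612 CPM (edgeR FDR 0.0783), and GRMZM2G174192 had 1.21, 0.332 and 0 CPM against 6.29, 12.3 and 8.17 CPM (edgeR FDR 0.0904).

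A gene for beta-carotene hydroxylase, GRMZM2G382534, whose enzyme makes xanthophylls from carotene, was at 4.22, 2.32 and 4.39 CPM with regurgitate and at 50.0, 89.0 and 74.7 CPM with wounding alone. Its log2 fold change was -4.24 ± 0.35 (18.9-fold lower, edgeR FDR 0.0418). The homeobox-leucine zipper gene GRMZM2G047715, one of a plant family of transcription factors, was at 2.41, 1.99 and 0.960 CPM against 26.7, 39.1 and 40.8 CPM. This was the largest fold change among the 11 (log2 -4.35 ± 0.40, edgeR FDR 0.0418), and the controls held the gene at 0.315 to 0.947 CPM. The EF hand gene GRMZM2G015912, of the calcium-binding protein family, was at 11.9, 12.3 and 9.74 CPM against 41.6, 55.7 and 50.6 CPM (log2 -2.13 ± 0.21, edgeR FDR 0.0479). A RING-H2 zinc finger gene, GRMZM2G341159, from a family of ubiquitin ligases, was at 2.21, 3.32 and 4.11 CPM against 21.7, 30.5 and 31.4 CPM (log2 -3.09 ± 0.32, edgeR FDR 0.0479). The remaining lower genes carry no informative description, and GRMZM2G057506, GRMZM2G108949 and GRMZM2G071705 had log2 fold changes of -3.44 ± 0.30, -2.54 ± 0.23 and -2.54 ± 0.24.

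Both genes called higher were those in which wounding plants were low. Response regulator 7, GRMZM2G096171, acts in cytokinin signalling. It stood at 95.3, 67.6 and 72.1 CPM with regurgitate and at 9.85, 12.9 and 12.05 CPM with wounding, a log2 fold change of 2.76 ± 0.23 (6.75-fold higher, edgeR FDR 0.0418). On the scale of all 12 libraries its control levels were 120, 64.3 and 115 CPM, beside the level of the regurgitate libraries. GRMZM2G001247, which the study's annotation places with pollen allergen and extensin genes, was at 29.0, 17.9 and 36.1 CPM against 2.21, 1.61 and 2.25 CPM (log2 3.76 ± 0.35, 13.6-fold higher, edgeR FDR 0.0444). Its controls lay between 33.6 and 35.7 CPM.

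**Figure D2:**
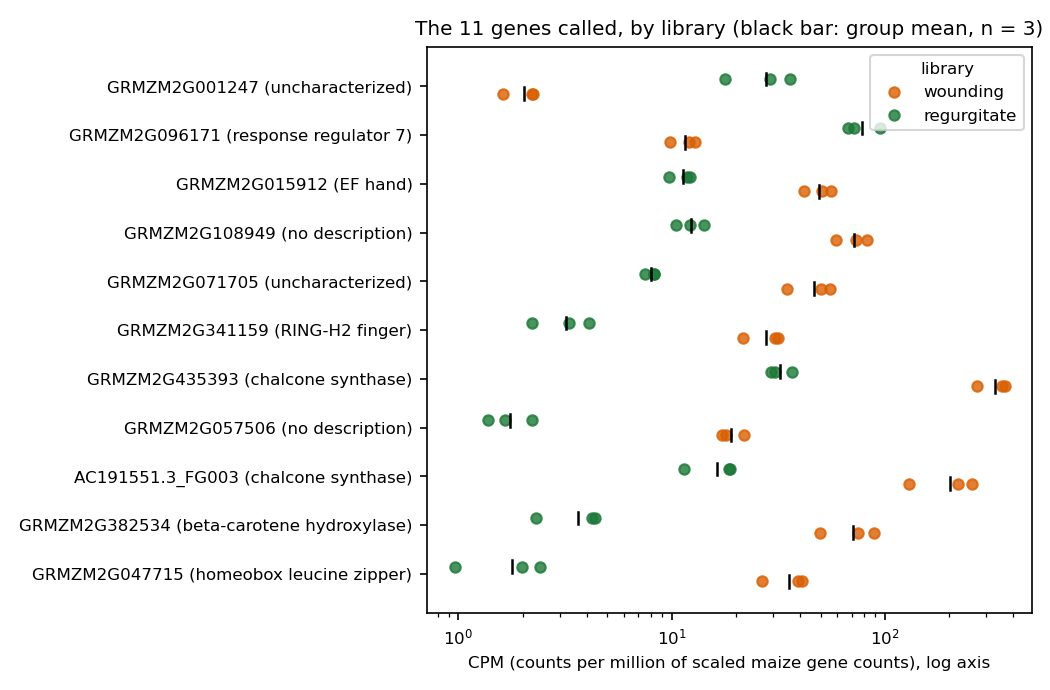
CPM (log axis) of the 11 genes called, 1 point per library (n = 3 per group) with the group mean as a black bar. For every gene the points of one group lie apart from those of the other, as for response regulator 7 at 67.6 to 95.3 against 9.85 to 12.9 CPM.

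For all 9 genes called lower, every wounding library lay above every control library, and for both genes called higher every wounding library lay below every control library. In 4 of the 9, every regurgitate library was also above every control library, among them the EF hand gene with controls of 0.742 to 2.03 CPM. For 11 of 11 called genes the control mean was nearer to the regurgitate mean than to the wounding mean, on log2 values of all 12 libraries. The same was true of 70.9% of all genes tested, of 89.7% of the 1709 genes higher at an unadjusted p under 0.05 and of 92.4% of the 1907 genes lower. Without regurgitate library 3 these shares were 65.8%, 89.3% and 92.7%. They are a description, since the genes were chosen by the difference between 2 of the groups involved.

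**Figure D3:**
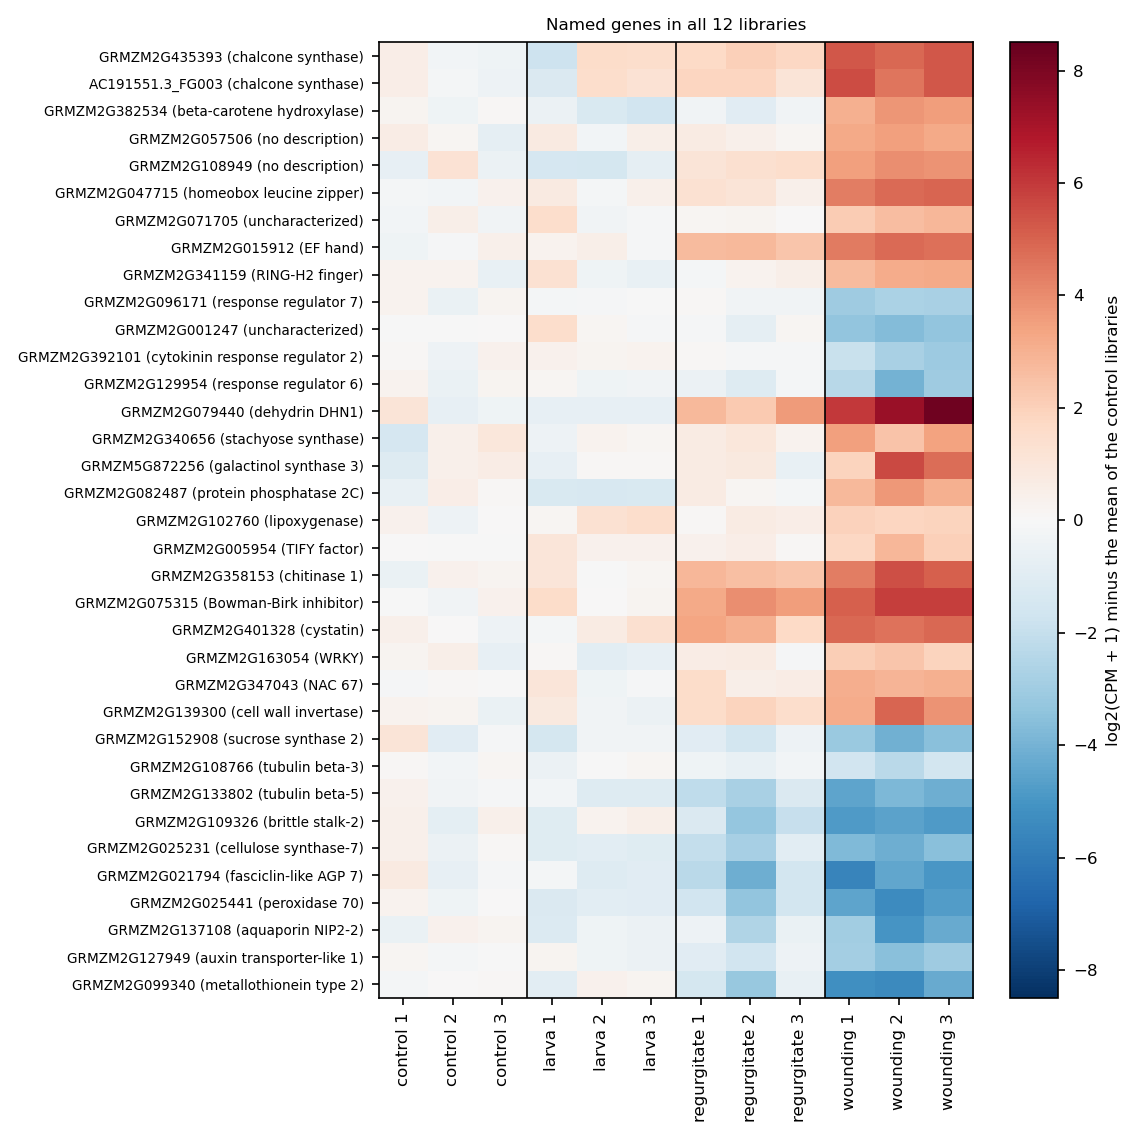
Level of 35 named genes in all 12 libraries, as log2(CPM + 1) minus the mean of the 3 control libraries, red above and blue below. The wounding columns carry the strongest colours, and the regurgitate columns lie nearer to the control level, as for dehydrin DHN1 and response regulator 7.

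Just beyond the threshold the FDRs were close together: 747 genes had an FDR from 0.05 to 0.1, 289 higher and 458 lower. The nearest of them was Constans1 GRMZM2G405368, related to a regulator of flowering time in *Arabidopsis*, at 17.7, 15.3 and 12.6 CPM against 111, 66.6 and 106 CPM (edgeR FDR 0.0549). For this reason the gene groups below are described by the share of their genes at an unadjusted p under 0.05, which was 9.35% higher and 10.4% lower over all genes tested, and by the share called by DESeq2, which was 3.98% higher and 4.95% lower. The libraries of the groups did not overlap in 26.2% of the genes tested, 12.1% higher and 14.1% lower. Values are given for genes that did not pass the FDR threshold of edgeR, without a call. The counts at an unadjusted p depend on the libraries: over all genes they ran from 1114 to 2914 higher and from 1255 to 2882 lower when 1 library was left out, with the most in both directions without regurgitate library 2. For lists that leaned to 1 direction, the libraries whose removal moved the count in that direction or the median by over 1.5 times are named beside it. For medians of small size not every such library is named.

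**Figure D4:**
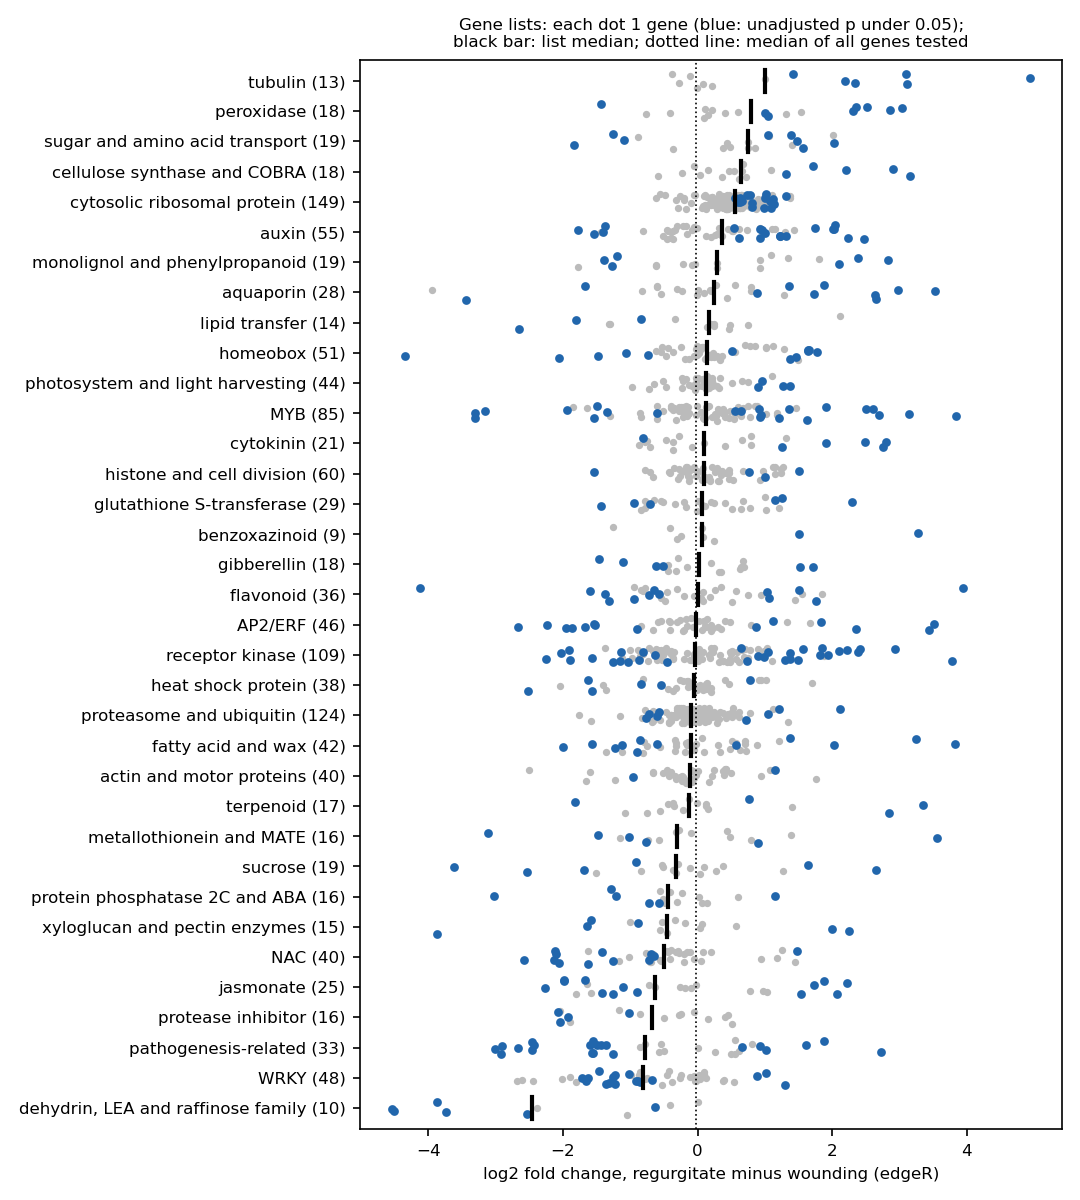
Log2 fold change, regurgitate minus wounding, of each tested gene in 35 lists with at least 9 genes tested (number in brackets), with blue dots at an unadjusted p under 0.05 and a black bar at the list median. The dehydrin list lies lowest at -2.46 and the tubulin list highest at 1.0004, and the dotted line is the median of all genes at -0.02.

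The genes of water-loss protection had the lowest median of these lists, -2.46. All 10 tested dehydrin, LEA and raffinose family genes were lower in value, 6 of them at an unadjusted p under 0.05 and 5 by DESeq2, and the median ran from -3.12 to -2.10 over the alternatives. Their summed level was 618, 529 and 566 CPM with regurgitate and 1843, 2898 and 4720 CPM with wounding. Dehydrin DHN1, GRMZM2G079440, which coats membranes and proteins in drying cells, was at 58.1, 38.8 and 109 CPM against 553, 1428 and 2716 CPM. Its log2 fold change was -4.51 ± 0.74 (edgeR FDR 0.0783, DESeq2 FDR 1.78e-09), while the controls held 4.73 to 19.3 CPM. Stachyose synthase GRMZM2G340656, an enzyme of raffinose family sugars, was at 125, 151 and 97.9 CPM against 890, 427 and 859 CPM (edgeR FDR 0.0783). Galactinol synthase 3, GRMZM5G872256, makes the galactose donor of that pathway. It was at 8.45, 9.61 and 3.02 CPM against 20.4, 298 and 161 CPM, so wounding library 1 lay much nearer to the regurgitate libraries than the other wounding libraries did.

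The neighbouring list of protein phosphatases 2C and abscisic acid genes, in which the phosphatases restrain the abscisic acid signal, held 16 tested genes with 1 higher and 5 lower at an unadjusted p under 0.05 and a median of -0.45. The number lower was 3 without regurgitate library 1, regurgitate library 3 or wounding library 3, and 2 without wounding library 2; without regurgitate library 3, 2 were higher. GRMZM2G082487 stood at 31.4, 21.2 and 17.0 CPM against 133, 267 and 166 CPM (log2 -3.02 ± 0.38, edgeR FDR 0.0783, DESeq2 FDR 1.09e-10). GRMZM2G360455, a phosphatase of the gamma isoform, had the opposite direction at 460, 355 and 582 CPM against 274, 141 and 217 CPM (edgeR FDR 0.145).

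Pathogenesis-related genes and protease inhibitors were mostly lower in value with regurgitate than with wounding alone. Among 33 tested pathogenesis-related genes (chitinases, glucanases, thaumatin-like and related proteins), 15 were lower and 6 higher at an unadjusted p under 0.05, DESeq2 called 13 lower and 3 higher, and the median was -0.79. Their summed level was 18682, 11612 and 9862 CPM against 32409, 36842 and 61905 CPM, so the sums of the groups did not overlap. The median log2 CPM over the list did overlap, at 4.255, 3.543 and 4.436 against 4.389, 3.839 and 4.291. In sign 20 genes were negative and 13 positive. Chitinase 1, GRMZM2G358153, which cuts the chitin of fungal walls, was at 479, 405 and 366 CPM against 1384, 3142 and 2331 CPM (log2 -2.45 ± 0.41, edgeR FDR 0.0783), and at 50.1 to 97.5 CPM in controls. The thaumatin domain gene GRMZM2G036826 was at 32.4, 28.2 and 36.2 CPM against 81.4, 251 and 201 CPM (edgeR FDR 0.0783). Glucan endo-1,3-beta-glucosidase 4, GRMZM2G125241, went the other way in value, at 31.4, 8.62 and 40.6 CPM against 5.10, 3.23 and 3.88 CPM (edgeR FDR 0.0881). Fungal-named counts stood higher in every wounding library than in regurgitate libraries 1 and 3, and their part in the levels of these antifungal genes was not tested. Leaving out 1 library gave from 12 to 15 lower, and the number higher was 3 without regurgitate library 3, wounding library 2 or wounding library 3.

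Protease inhibitors block the digestive enzymes of insects. Of 16 tested genes, 0 were higher and 4 lower at an unadjusted p under 0.05, DESeq2 called the same numbers, and the median was -0.68. The number lower was 2 without regurgitate library 1 or wounding library 3, and the median was -0.41 without regurgitate library 2 and -0.23 without wounding library 3. The summed level was 19871, 36620 and 23036 CPM with regurgitate and 56415, 82309 and 63912 CPM with wounding. The Bowman-Birk trypsin inhibitor GRMZM2G075315 was at 1608, 2660 and 2111 CPM against 5666, 10399 and 10211 CPM (log2 -2.04 ± 0.47, edgeR FDR 0.0944). In controls it was at 154 to 240 CPM, below all the wounded plants of both groups. The protease inhibitor gene GRMZM2G028393 was at 3750, 17255 and 5182 CPM against 29360, 45675 and 24483 CPM (edgeR FDR 0.235), and regurgitate library 2 lay nearer to the wounding libraries than the others. Cystatin GRMZM2G401328, an inhibitor of cysteine proteases, was at 17.9, 13.9 and 5.21 CPM against 53.5, 46.8 and 54.9 CPM (edgeR FDR 0.0866).

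Jasmonate genes went both ways. Of 25 tested, 8 were lower and 5 higher at an unadjusted p under 0.05, with a median of -0.63. The median was -0.13 without regurgitate library 3, -0.23 without regurgitate library 2 and -0.36 without wounding library 2, and 3 were higher without regurgitate library 1, regurgitate library 3 or wounding library 2. The lipoxygenases GRMZM2G102760 and GRMZM2G017616 belong to the family that oxidises fatty acids. Their descriptions do not say whether they serve jasmonate synthesis. GRMZM2G102760 was at 49.9, 74.6 and 70.4 CPM against 180, 169 and 176 CPM (log2 -1.43 ± 0.23, edgeR FDR 0.0783). GRMZM2G017616 was at 50.9, 53.4 and 50.2 CPM against 92.3, 133 and 109 CPM (edgeR FDR 0.082). The TIFY gene GRMZM2G005954, from the family that includes the JAZ repressors of jasmonate responses, was at 49.3, 55.4 and 42.2 CPM against 132, 291 and 161 CPM (edgeR FDR 0.0783), and its controls lay at 42.6 to 43.4 CPM.

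Genes of the WRKY and NAC families of transcription factors, many of which act in stress, were mostly lower in value. In the WRKY family 14 of 48 tested genes were lower and 3 higher at an unadjusted p under 0.05 (median -0.82), and in the NAC family 11 of 40 were lower and 1 higher (median -0.50). DESeq2 called 8 WRKY genes lower and 2 higher, and 6 NAC genes lower and 1 higher. The WRKY median was -0.46 without regurgitate library 3 and -0.40 without wounding library 2. In the NAC family 6 were lower without regurgitate library 3, with a median of -0.32, the median was -0.89 without regurgitate library 2, and from 1 to 5 were higher, with 5 without wounding library 1. The WRKY gene GRMZM2G163054 was at 44.5, 44.4 and 26.9 CPM against 124, 151 and 106 CPM (edgeR FDR 0.0783). The NAC gene GRMZM2G347043, described as NAC domain protein 67, was at 60.1, 28.2 and 32.0 CPM against 175, 156 and 169 CPM (log2 -2.05 ± 0.33, edgeR FDR 0.0783). Among 85 MYB genes 14 were higher and 8 lower, with a median of 0.12 that was 0.06 without regurgitate library 2. The share higher was above the 9.35% of all genes, and the share lower was not above their 10.4%. DESeq2 called 8 higher and 7 lower, so by DESeq2 the shares in both directions were above those of all genes (3.98% and 4.95%). Among 46 AP2/ERF genes 6 were higher and 8 lower, with a median of -0.03 that changed sign in 9 of 18 alternatives. The heat shock list holds chaperones of stressed cells and also a gene described as heat shock factor protein 4, which was among the lower ones. It had 1 of 38 higher and 5 lower, with a median of -0.05 that changed sign in 2 alternatives.

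The tubulin, cellulose synthase and peroxidase lists lay on the other side. Tubulins, the subunits of microtubules, had the highest median of the lists plotted, 1.0004, with 6 of 13 higher and 0 lower at an unadjusted p under 0.05 and 6 called higher by DESeq2. Tubulin beta-3, GRMZM2G108766, was at 63.8, 51.7 and 72.7 CPM against 26.3, 17.0 and 27.6 CPM (log2 1.41 ± 0.26, edgeR FDR 0.082). Tubulin beta-5, GRMZM2G133802, was at 35.2, 23.2 and 70.4 CPM against 6.29, 11.1 and 8.17 CPM (log2 2.34 ± 0.46, edgeR FDR 0.085), with controls at 149 to 231 CPM. The feature of tubulin beta-2, GRMZM2G334899, joins 5 identifiers, of which only 1 is a maize gene. It stood at 46.3, 143 and 23.5 CPM against 6.12, 6.05 and 12.2 CPM (edgeR FDR 0.0966), and regurgitate library 2 was the highest. The summed tubulin level was likewise highest in regurgitate library 2, at 1807, 4727 and 1364 CPM against 895, 1352 and 917 CPM, and so was that of actin and motor genes, at 6841, 13189 and 5338 CPM against 6225, 8029 and 5909 CPM. Actin and motor genes had 1 of 40 higher and 1 lower, with a median of -0.12 that changed sign in 2 alternatives. The tubulin median was 1.39 without regurgitate library 2 and 0.62 without library 3.

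Cellulose synthases spin the chains of cellulose at the plasma membrane, and COBRA proteins of the brittle stalk type are needed for cellulose in stem walls. Of 18 tested genes 5 were higher and 0 lower at an unadjusted p under 0.05, and the median was 0.64. The number higher was 10 without regurgitate library 2, and 3 without regurgitate library 1, wounding library 2 or wounding library 3. The list of xyloglucan and pectin enzymes, which remodel the wall, went the other way in value, with 2 of 15 higher and 4 lower. The lower genes include GRMZM2G025105, which is described as a polygalacturonase inhibitor and so is not such an enzyme. The median of this list, -0.46, changed sign in 3 alternatives. The median was -0.24 without regurgitate library 1, -0.15 without regurgitate library 2, -0.01 without wounding library 2 and -0.14 without wounding library 3. Brittle stalk-2, GRMZM2G109326, was at 38.4, 8.29 and 23.3 CPM against 2.38, 3.03 and 2.45 CPM (log2 3.16 ± 0.57, edgeR FDR 0.082, DESeq2 FDR 3.53e-05). Cellulose synthase-7, GRMZM2G025231, was at 33.2, 18.6 and 74.9 CPM against 9.52, 7.06 and 11.02 CPM (log2 2.21 ± 0.52, edgeR FDR 0.0994). Regurgitate library 2 was the lowest of its group for both. Controls were higher still, at 55.5 to 137 CPM for brittle stalk-2 and 107 to 203 CPM for cellulose synthase-7. Fasciclin-like arabinogalactan protein 7, GRMZM2G021794, a glycoprotein of the cell surface, was at 38.2, 9.95 and 66.3 CPM against 3.06, 8.48 and 5.31 CPM (edgeR FDR 0.111). Another gene with that description, GRMZM2G001514, overlapped between the groups, at 27.2, 2.98 and 13.9 CPM against 4.76, 9.48 and 5.92 CPM (edgeR FDR 0.405).

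Peroxidases, which use hydrogen peroxide in wall cross-linking and other reactions, had 7 of 18 genes higher and 1 lower at an unadjusted p under 0.05, 7 called higher by DESeq2, and a median of 0.80. Peroxidase 70, GRMZM2G025441, was at 55.3, 15.9 and 58.2 CPM against 6.80, 3.43 and 5.51 CPM (log2 3.04 ± 0.54, edgeR FDR 0.082). Peroxidase 42, GRMZM2G126261, was at 8.45, 3.65 and 13.3 CPM against 1.70, 2.02 and 1.43 CPM (edgeR FDR 0.094). The feature of peroxidase 70 joins 4 identifiers and that of peroxidase 42 joins 2, and in each only 1 is a maize gene. The lignin precursor pathway was split: 3 of 19 genes were higher and 3 lower, with 8 higher without regurgitate library 2, 5 higher without wounding library 1 and 1 lower without regurgitate library 1 or 3. Its first enzyme shows both directions, since the phenylalanine ammonia-lyase gene GRMZM2G441347 was at 68.0, 17.6 and 73.9 CPM against 10.2, 4.64 and 7.55 CPM (log2 2.83 ± 0.58, edgeR FDR 0.0866) and its family member GRMZM2G170692 was at 24.1, 17.6 and 18.2 CPM against 43.3, 50.5 and 50.8 CPM (log2 -1.27 ± 0.21, edgeR FDR 0.0783). Controls lay at 77.4 to 559 CPM for the former and at 3.47 to 6.90 CPM for the latter.

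Proteins of the cytosolic ribosome had small differences, mostly in 1 direction. Of 149 tested genes 137 had a positive log2 fold change and 12 a negative one, while over all genes 8857 of 18285 were positive. Among the 149 genes, 17 were higher and 0 lower at an unadjusted p under 0.05, and the median was 0.56. The share at that p, 17 of 149, was close to the 9.35% of all genes, and DESeq2 called 5 higher. The number higher was 5 without regurgitate library 1, 102 without regurgitate library 2, 10 without regurgitate library 3, 11 without wounding library 1, 4 without wounding library 2 and 8 without wounding library 3. With the replicate block 52 were higher and 0 lower at an unadjusted p under 0.05. Their summed level was 31158, 41488 and 26721 CPM against 19301, 21611 and 21094 CPM, so by this sum each regurgitate library was above each wounding library. The median log2 CPM over the list overlapped, at 6.932, 6.19 and 7.036 against 6.38, 6.022 and 6.568. The ribosomal protein L23a gene GRMZM2G083253 was at 276, 178 and 278 CPM against 135, 89.8 and 120 CPM (log2 1.09 ± 0.28, edgeR FDR 0.117). Photosystem genes (4 of 44 higher, 0 lower, median 0.13) and histone and cell division genes (3 of 60 higher, 1 lower, median 0.09), which mark green and dividing cells, did not exceed the shares of all genes; 2 photosystem genes were higher without regurgitate library 1, wounding library 2 or wounding library 3, and without wounding library 3, 10 of 61 histone and cell division genes were higher.

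Growth hormone genes included several with clear separation between the libraries. Besides response regulator 7, the cytokinin response regulator 2 gene GRMZM2G392101 was at 20.5, 17.2 and 17.8 CPM against 4.42, 2.02 and 1.43 CPM (log2 2.79 ± 0.43, edgeR FDR 0.0783), and response regulator 6, GRMZM2G129954, was at 92.3, 59.0 and 120 CPM against 24.98, 7.67 and 15.5 CPM (log2 2.49 ± 0.48, edgeR FDR 0.082). Over the 21 cytokinin genes tested 5 were higher and 1 lower, with a median of 0.10 that ran from -0.08 without regurgitate library 2 to 0.33 without wounding library 1, and 3 were higher without regurgitate library 1, regurgitate library 3 or wounding library 2. Of 55 auxin genes 15 were higher and 4 lower, with a median of 0.37. Of these 9 were higher without regurgitate library 3, and the median was 0.62 without regurgitate library 2. Auxin transporter-like protein 1, GRMZM2G127949, which belongs to a family of auxin uptake carriers, was at 92.7, 57.7 and 136 CPM against 24.3, 15.1 and 21.4 CPM (log2 2.24 ± 0.37, edgeR FDR 0.0783). The auxin-responsive SAUR gene GRMZM2G414727 was lower in value, at 15.9, 17.6 and 14.0 CPM against 40.1, 61.1 and 60.4 CPM (log2 -1.77 ± 0.24, edgeR FDR 0.0783).

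Transport and sugar genes were mixed. Of 28 aquaporins, the water and solute channels, 8 were higher and 2 lower at an unadjusted p under 0.05 (median 0.24), and of 19 sugar and amino acid transporters 5 were higher and 3 lower (median 0.74). Of the aquaporins 3 were higher without regurgitate library 1 and 4 without wounding library 2 or 3. The aquaporin median was 0.46 without regurgitate library 2 and 0.50 without wounding library 1. Of the transporters 8 were higher without wounding library 1, with a median of 0.49 without wounding library 2. Aquaporin NIP2-2, GRMZM2G137108, was at 163, 36.8 and 155 CPM against 28.2, 6.26 and 10.4 CPM (edgeR FDR 0.11). An aquaporin of the NIP type, GRMZM2G126582, was at 22.7, 32.8 and 18.2 CPM against 58.8, 110 and 64.1 CPM (edgeR FDR 0.0866). Of 19 sucrose genes 2 were higher and 4 lower, with a median of -0.33 that was -0.16 without regurgitate library 2. Sucrose is cleaved by sucrose synthase or by invertase, and the list's members with the smallest p include 1 gene of each. Sucrose synthase 2, GRMZM2G152908, was at 234, 146 and 339 CPM against 50.0, 26.2 and 38.2 CPM (log2 2.65 ± 0.40, edgeR FDR 0.0783). The cell wall isozyme of beta-fructofuranosidase, GRMZM2G139300, an invertase, was at 128, 155 and 123 CPM against 391, 1344 and 623 CPM (log2 -2.54 ± 0.49, edgeR FDR 0.0843).

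Among the maize defences against borers, the benzoxazinoid pathway, which makes the insecticidal compound DIMBOA, had 2 of 9 genes higher and 0 lower at an unadjusted p under 0.05, and 1 higher without regurgitate library 1, regurgitate library 3, wounding library 1 or wounding library 2. GRMZM2G172491 encodes 3-hydroxyindolin-2-one monooxygenase, a middle step of that pathway, and was at 7.04, 4.97 and 19.3 CPM against 1.19, 1.21 and 0.817 CPM (log2 3.28 ± 0.62, edgeR FDR 0.082). DIMBOA glucosyltransferase BX8, GRMZM2G085054, was at 30.8, 9.61 and 43.8 CPM against 9.85, 6.05 and 14.1 CPM, and its groups overlapped (edgeR FDR 0.21). The indolin-2-one monooxygenase GRMZM2G167549 had the opposite sign, at 44.3, 66.6 and 13.2 CPM against 68.3, 148 and 77.8 CPM (edgeR FDR 0.296). Its feature joins 17 identifiers, of which only 1 is a maize gene. A monoterpene synthase, GRMZM2G030583, was at 23.9, 6.96 and 43.2 CPM against 3.40, 1.82 and 2.04 CPM (log2 3.35 ± 0.68, edgeR FDR 0.0861), and 3 of 17 terpenoid genes were higher and 1 lower, with 5 higher without regurgitate library 2 or wounding library 3 and 4 lower without wounding library 1.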

How the data were processed

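MACE (3′-end) libraries were made from maize stem, 3 per group in 4 groups. Per the methods and labels, the authors removed duplicate reads by barcode, aligned reads with Novoalign 3.00.05 to the maize genome and transcriptome, and assembled and annotated the rest as contigs. The authors deposited counts per feature and library, not normalized. Columns with means of normalized counts per group and with p-values, FDRs and log2 fold changes of the authors' own comparisons were not used. There were 0 unmapped columns of values per sample.

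Features with a maize gene identifier were filtered by filterByExpr (minimum count 10, total 15), scaled by TMM and tested on 6 libraries with the quasi-likelihood F test of edgeR 4.0.16 (limma 3.58.1, R 4.3.3), with Benjamini-Hochberg adjustment and an FDR threshold of 0.05. DESeq2 1.42.0 and limma voom with quality weights were among 18 alternatives, of which 1, the sum of larva libraries 2 and 3, was chosen after seeing the data, as was the fungal share. Deviations from the group means correlated at 0.17, 0.34 and 0.17 between replicates with the same number, the only source of the replicate block. Replicates of unlike number were not compared, so these values do not establish a pairing. Tests were checked on simulated counts. Library depth is given with the results. Precision was limited by the spread between 3 libraries.

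Lists were built from words in the deposited descriptions. Named genes were taken from those called, the 10 with the smallest p per direction (also among described genes) and the 3 with the smallest p per list. The genes and lists were chosen with earlier results of these data known. No sequences were used here.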

Additional observations from a re-analysis of the deposited data

Results flagged for a closer look

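Counts outside the maize genes were not part of the comparison. Features whose protein match named a fungus of the 7 genera searched took more of the counts than in any control library (0.264% to 0.528%) in 5 of the 6 libraries compared: 4.66% and 14.8% in regurgitate libraries 1 and 2, and 10.96%, 24.9% and 12.5% in wounding libraries 1 to 3. A set of 530 assembled contigs, chosen after their values were seen as at least 20 times higher per count in regurgitate libraries 1 and 2 than in each of the other 10 libraries, took 7.27% and 16.2% of the counts in those libraries, 0.0143% in regurgitate library 3 and at most 0.132% elsewhere. Of these contigs 409 had no protein match. Whether RNA of another source entered these libraries was not tested.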

How the results depend on the processing

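The 11 genes called became 9 with RLE size factors, 11 with robust dispersions or a mean of at least 10 counts, and 12 with features of 1 identifier. No gene was called with total counts only (0, with 4322 at an unadjusted p under 0.05), with all features tested together (0, 2381 unadjusted) or with the replicate block (0, 4570 unadjusted). More were called by DESeq2 (1633), voom with quality weights (1282), no filter on low counts (110, 28 higher and 82 lower), all 12 libraries in a single fit (1788), or the same fit with larva libraries 2 and 3 summed (1115), which differed by little more than sampling noise (chi-square per degree of freedom 1.56, against 16.6 or more in the other pairs of libraries within a group). Leaving out 1 library gave from 0 to 665 genes. The cause of these differences was not tested. Over 80 named genes no alternative reversed a sign, a weak check since they were chosen by small p. Of their values 312 passed the threshold where the main value did not, against 81 that lost it. The replicate block changed no other call. Among the medians of the lists, 641 values moved by less than the spread between libraries and 79 by more; the medians of the flavonoid, AP2/ERF and receptor kinase lists, all near 0, changed sign in 13, 9 and 10 settings. Depth limited the test to the 18285 genes past the filter on low counts.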

Other observations

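Other genes with small p-values in the comparison, all short of the edgeR threshold, had varied functions. NADP-dependent isocitrate dehydrogenase GRMZM2G033515, which supplies NADPH, was at 33.4, 17.2 and 26.2 CPM in the regurgitate libraries against 135, 262 and 275 CPM in the wounding libraries (log2 -3.12 ± 0.39, edgeR FDR 0.0783). GRMZM2G064521, described as a protein induced upon tuberization, was at 1.61, 1.66 and 2.74 CPM against 19.0, 50.7 and 60.2 CPM (edgeR FDR 0.0769). A pectinesterase, GRMZM2G431856, which removes methyl groups from pectin, was at 0.402, 0.332 and 0.274 CPM against 5.10, 5.85 and 4.49 CPM (edgeR FDR 0.0651). Zinc transporter 4, GRMZM2G064382, was at 65.4, 49.7 and 47.0 CPM against 16.1, 18.6 and 21.2 CPM (log2 1.54 ± 0.22, edgeR FDR 0.0783). Metallothionein-like protein type 2, GRMZM2G099340, from a family of metal-binding proteins, was at 95.3, 27.8 and 179 CPM against 6.63, 5.65 and 13.5 CPM (edgeR FDR 0.0853). GRMZM2G106445, described as wound induced, was higher in value with regurgitate, at 34.8, 13.6 and 53.9 CPM against 3.40, 3.03 and 2.86 CPM (edgeR FDR 0.0783), and its controls held 64.7 to 770 CPM, above both wounded groups.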
